A study of Homo sapiens with 22 samples.

Results

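RNA polymerase II (Pol II) transcribes beyond the annotated 3' end of a gene before it leaves the DNA, and the regions described here are Pol II peaks at those ends. A gene was eligible when it was protein-coding, had all of its control CLIP peaks on 1 strand, and was at least 10 kb long in RefSeq. Of 2794 protein-coding genes with a control CLIP peak, all had them on 1 strand, and 2569 were long enough. A Pol II peak counted as a 3' end peak when it lay within 1 kb of the 3' end of such a gene and no H3K4me3 peak of either condition lay within 1 kb of it. The peaks were thus chosen by the positions of Pol II, H3K4me3 and CLIP peaks in these lists. The rule kept 584 of 35094 Pol II peaks in QKI5 knockdown and 557 of 33370 in control. They belonged to 724 of the 2569 genes.

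The cells were THP-1, a human monocytic leukaemia line, infected with lentivirus encoding sh-QKI5 in the knockdown group and sh-control in the other. Per the labels each condition had 2 Pol II and 2 H3K4me3 ChIP samples and 2 QKI5 CLIP samples, with 4 ChIP inputs in knockdown and 2 in control. The series text calls the control cells untreated, whereas the sample labels give the control hairpin, which was followed here. ChIP (chromatin immunoprecipitation) shows where on the DNA a protein or a histone mark sits, and CLIP (crosslinking immunoprecipitation) shows which stretches of RNA a protein contacts. Each condition gave 1 peak list per assay, pooled from both replicates, so the spread between replicates and the depth behind a peak are unknown and no difference between conditions carries a p-value. Intervals are exact (Clopper-Pearson) 95% binomial intervals, or order-statistic intervals for medians, and cover counting error only. The lists hold no RNA or protein level of QKI, and the degree of its depletion is unknown here. The CLIP lists hold 669 peaks in knockdown and 7337 in control. Of 12 monocyte and myeloid markers, 10 had an H3K4me3 peak at a gene end in knockdown and 10 in control, with MPO and CSF1R lacking it in both. Of the 5 epithelial and 6 erythroid markers none had one, of the 6 T-cell markers CD8A alone had one, of the 6 B-cell markers 3 in knockdown and 2 in control, and of the 6 fibroblast and endothelial markers 2 in knockdown and 2 in control.

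At the end of a protein-coding gene Pol II transcribes the polyadenylation signal, the cleavage and polyadenylation machinery cuts the transcript, and the polymerase slows and keeps transcribing until it is released, with the exonuclease XRN2 degrading the RNA left behind the cut. Pol II therefore occupies DNA downstream of many expressed genes. H3K4me3 marks active promoters, so peaks near it were left out. QKI is an RNA-binding protein of the STAR family that regulates splicing, and QKI5 is its nuclear isoform.

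A 3' end peak can still lie over the annotated start of another gene. Such starts are shown because they are promoter positions under Pol II where the rule requires H3K4me3 to be missing. The RefSeq table holds 300-base windows from 250 bases before to 50 bases after each start, and 22 of 602 gene and peak pairs in knockdown (3.65%) and 22 of 571 in control (3.85%) covered at least part of a window of another gene. They concerned 32 genes, 12 of them in both conditions, and 33 other genes, 22 of which are protein-coding. The windows of MYBPC3 (cardiac myosin-binding protein C), downstream of SPI1, of OPN1SW (the short-wavelength cone opsin), downstream of CALU, and of GRAMD2A, downstream of PKM, were covered whole in both conditions. The window of PKM itself, which carried H3K4me3 in both, is given for contrast. The sequences are RefSeq's, GRCh38.p14, 5' to 3' on the minus strand, where each of these genes lies, with CG dinucleotides in capitals.
MYBPC3, chr11:47352653-47352952: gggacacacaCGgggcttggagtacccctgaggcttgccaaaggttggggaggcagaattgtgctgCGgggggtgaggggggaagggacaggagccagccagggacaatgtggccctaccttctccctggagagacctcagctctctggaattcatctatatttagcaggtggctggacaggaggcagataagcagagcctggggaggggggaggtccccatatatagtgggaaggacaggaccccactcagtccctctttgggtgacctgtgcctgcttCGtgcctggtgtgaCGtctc
OPN1SW, chr7:128775745-128776044: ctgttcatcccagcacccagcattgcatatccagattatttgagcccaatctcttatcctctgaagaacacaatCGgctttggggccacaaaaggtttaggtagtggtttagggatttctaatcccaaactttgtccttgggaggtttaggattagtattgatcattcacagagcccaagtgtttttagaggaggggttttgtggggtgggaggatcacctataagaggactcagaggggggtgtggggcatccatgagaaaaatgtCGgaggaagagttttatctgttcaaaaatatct
GRAMD2A, chr15:72197738-72198037: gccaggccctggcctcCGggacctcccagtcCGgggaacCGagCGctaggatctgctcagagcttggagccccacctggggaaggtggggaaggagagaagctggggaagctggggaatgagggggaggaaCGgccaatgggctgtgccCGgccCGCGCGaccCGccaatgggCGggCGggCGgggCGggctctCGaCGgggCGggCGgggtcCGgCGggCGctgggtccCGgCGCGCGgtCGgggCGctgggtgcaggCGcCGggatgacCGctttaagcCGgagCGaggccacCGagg
PKM, chr15:72231141-72231440: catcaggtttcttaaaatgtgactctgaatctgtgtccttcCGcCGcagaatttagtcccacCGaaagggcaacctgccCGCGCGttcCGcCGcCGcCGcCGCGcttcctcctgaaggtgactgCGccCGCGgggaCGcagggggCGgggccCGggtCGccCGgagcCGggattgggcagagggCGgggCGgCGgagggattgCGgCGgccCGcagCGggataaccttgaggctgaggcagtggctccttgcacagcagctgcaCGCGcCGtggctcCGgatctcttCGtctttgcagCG
The MYBPC3 window holds 4 CG dinucleotides and 29.6% of all 35116 windows in the table hold as few. OPN1SW holds 2, a number that 18.2% of windows do not exceed. GRAMD2A holds 33 and PKM 34, and 17.2% of windows hold as many as GRAMD2A and 15.6% as many as PKM. Over the 36 windows under 3' end peaks the median was 11.5 CG, with a range of 1 to 44, beside 14 over all windows and 27 over the 17535 windows under H3K4me3 in both conditions. Both CG-poor and CG-rich starts stood under these peaks.

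In QKI5 knockdown 548 genes had a 3' end peak, 21.3% of those eligible (19.8 to 22.97%), and in control 512 genes, 19.9% (18.4 to 21.5%). The ratio of genes, 1.07, was close to the ratio of all Pol II peaks, 1.05, and of all Pol II peaks free of H3K4me3, 1.05. A 3' end peak was present in both conditions at 336 genes (13.1%). At 183 genes (7.12%; 6.16 to 8.19%) it was in knockdown alone, with no control Pol II peak of any kind within 1 kb of the end, and at 151 genes (5.88%; 5.0 to 6.86%) in control alone. At the other 54 genes the opposite condition had a Pol II peak there that failed the rule, with the 3' end peak in knockdown at 29 and in control at 25. These counts follow from the rule and describe the lists.

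The Pol II signal at the end of the gene was set beside other points of the same 2569 genes. A Pol II peak free of H3K4me3 lay within 1 kb of the middle of the gene in 6.66% of genes in knockdown (5.72 to 7.69%) and 6.46% in control (5.54 to 7.48%). At 3/4 of the length the shares were 8.06% in knockdown (7.03 to 9.18%) and 9.11% in control (8.02 to 10.3%). The shares at the 3' end were above both in both conditions, with intervals that do not overlap. The 5' ends had a Pol II peak of any kind in 82.5% of genes in knockdown and 80.6% in control.

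The share of genes under Pol II free of H3K4me3 was highest downstream of the 3' end. At 5 kb upstream of the end 5.45% of genes lay under such a peak in knockdown (4.604 to 6.40%) and 5.02% in control (4.21 to 5.94%). The highest share came 2000 bp downstream in knockdown, at 13.3% (12.0 to 14.6%), and 1750 bp downstream in control, at 12.1%. By 10000 bp downstream the shares were 3.58% in knockdown and 3.46% in control. The curve counts every H3K4me3-free Pol II peak at a position, so it also holds peaks that do not reach the 1 kb around the end. At 2000 bp downstream 341 genes were covered in knockdown, where 174 pairs of a gene and its 3' end peak reached that far, and 295 genes were covered in control, where 154 pairs did.

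**Figure D1:**
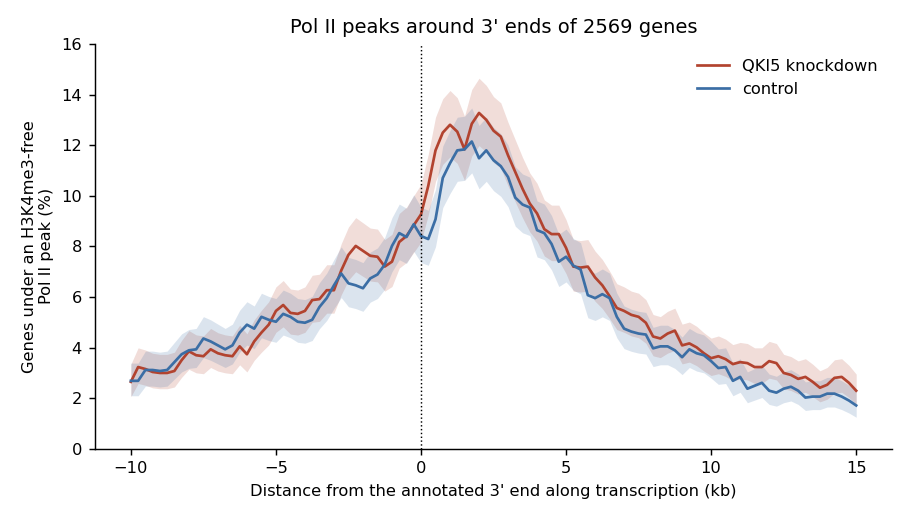
Share of the 2569 eligible genes that lie under an H3K4me3-free Pol II peak (y axis, %) by distance from the annotated 3' end along transcription (x axis, kb), for QKI5 knockdown and control, with 95% binomial bands. Both curves are highest downstream of the end, at 2000 bp in knockdown and 1750 bp in control.

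The knockdown curve lay above the control curve at 76 of the positions sampled every 250 bp and below it at 24. Neighbouring positions share peaks and are not independent. Over the first 5 kb downstream such peaks covered 1427 kb in knockdown and 1293 kb in control, a ratio of 1.10. From 5 to 10 kb downstream they covered 689 kb in knockdown and 634 kb in control, a ratio of 1.09. Over 10 to 15 kb downstream they covered 393 kb in knockdown and 312 kb in control, a ratio of 1.26. Over the last 5 kb inside the gene the ratio was 1.06, and over 5 to 10 kb inside the gene it was 0.928, with 472 kb in knockdown and 509 kb in control. Across the genome the ratio of DNA under H3K4me3-free Pol II peaks was 1.07. At 500 bp downstream, a position singled out after the curve was seen, 303 genes were covered in knockdown (11.8%; 10.6 to 13.1%) and 233 in control (9.07%; 7.99 to 10.2%). Of these, 141 genes were covered in both. With 1 list per condition this difference was not tested.

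Among the 1180 eligible genes with no other gene within 5 kb of the 3' end, the highest share was 13.1% in knockdown, 2000 bp downstream, and 11.02% in control, 2250 bp downstream. The first 5 kb downstream of these genes held 592 kb under H3K4me3-free Pol II peaks in knockdown and 508 kb in control, a ratio of 1.16. Over the last 5 kb inside these genes the ratio was 1.13, and over 5 to 10 kb inside it was 0.904. Farther downstream it was 1.12 over 5 to 10 kb and 1.28 over 10 to 15 kb. The downstream maximum was therefore present where no neighbouring gene lay close by.

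The rule does not fix on which side of the end a peak lies. Along the direction of transcription, 61.8% of 3' end peaks were centred downstream of the end in knockdown (57.8 to 65.7%) and 55.7% in control (51.5 to 59.8%). The median centre lay 484 bp downstream in knockdown and 213.5 bp downstream in control. Peaks crossing the annotated end made up 39.5% in knockdown and 37.8% in control, and those wholly downstream 39.2% in knockdown and 36.4% in control. Peaks wholly upstream, inside the gene, made up 21.3% in knockdown (18.1 to 24.8%) and 25.7% in control (22.2 to 29.5%), so the intervals of the conditions overlap. Peaks reaching over 2 kb downstream made up 28.9% in knockdown and 26.97% in control, and those reaching over 5 kb 7.64% in knockdown and 8.58% in control.

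The peaks ranged from 0.50 kb, the narrowest and commonest width in the lists, to 23142 bp in knockdown and 18936 bp in control. The median was 1126 bp in knockdown and 949 bp in control, beside 631 bp in knockdown and 630 bp in control for all H3K4me3-free Pol II peaks. A limit on the distance to a fixed point catches wide peaks more readily, so these medians are not directly comparable. With a limit of 500 bp the median was 1655 bp in knockdown and 1371.5 bp in control, and with 2 kb 917 bp and 827 bp. Where the gene had a 3' end peak in both conditions the median was 1792 bp in knockdown and 1628 bp in control. It was 665 bp at genes with a peak in knockdown alone and 641 bp at genes with a peak in control alone. Peaks of the narrowest width made up 23.97% in knockdown and 29.6% in control.

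The 10 widest 3' end peaks at genes with a peak in both conditions, ranked by their knockdown width, ran over many kilobases. Ranking on the knockdown list favours genes that are wider there. At SPRING1, a regulator of the SREBP lipid pathway, the knockdown peak at chr12:116687321-116710462 was 23142 bp wide and reached 22850 bp downstream of the end. In control the same stretch held a peak of 9957 bp, reaching 10568 bp downstream, and a second of the narrowest width at the end itself. A further control Pol II peak of 14650 bp, which was not a 3' end peak, also overlapped the knockdown peak. DDX17, a DEAD-box RNA helicase that acts in splicing, had 19398 bp in knockdown, reaching 6269 bp downstream, and 14203 bp in control, reaching 4898 bp downstream. Further control Pol II peaks of 858 bp and 5441 bp overlapped the DDX17 knockdown peak. CRLF3 had 19871 bp in knockdown and 15704 bp in control, most of it inside the gene. A further control peak of 1568 bp overlapped the CRLF3 knockdown peak. The 3' end peaks of these genes extend far beyond the 1 kb around the end that the rule examined.

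ATG16L2 and FCHSD2, an autophagy-related gene and an endocytosis gene that face each other tail to tail, shared a knockdown peak of 18134 bp at chr11:72826804-72844937. Control had a separate peak at each, of 1412 bp at ATG16L2 and 11051 bp at FCHSD2, and a further peak of the narrowest width under the knockdown peak. MARCHF7, a ubiquitin ligase gene, had 13837 bp in knockdown and 14620 bp in control, and a further knockdown peak of 847 bp overlapped the control peak. SUN2, a nuclear envelope protein gene, had 13620 bp in knockdown and 10093 bp in control. Further control Pol II peaks of 1244 bp and 5404 bp overlapped the SUN2 knockdown peak. MRNIP, KANSL1L and CLSTN1 complete the 10. KANSL1L had 14126 bp in knockdown, inside the gene, and 646 bp in control, just past the end, and these peaks do not touch. Control had a Pol II peak of 11727 bp under the knockdown peak, farther than 1 kb from the end.

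**Figure D2:**
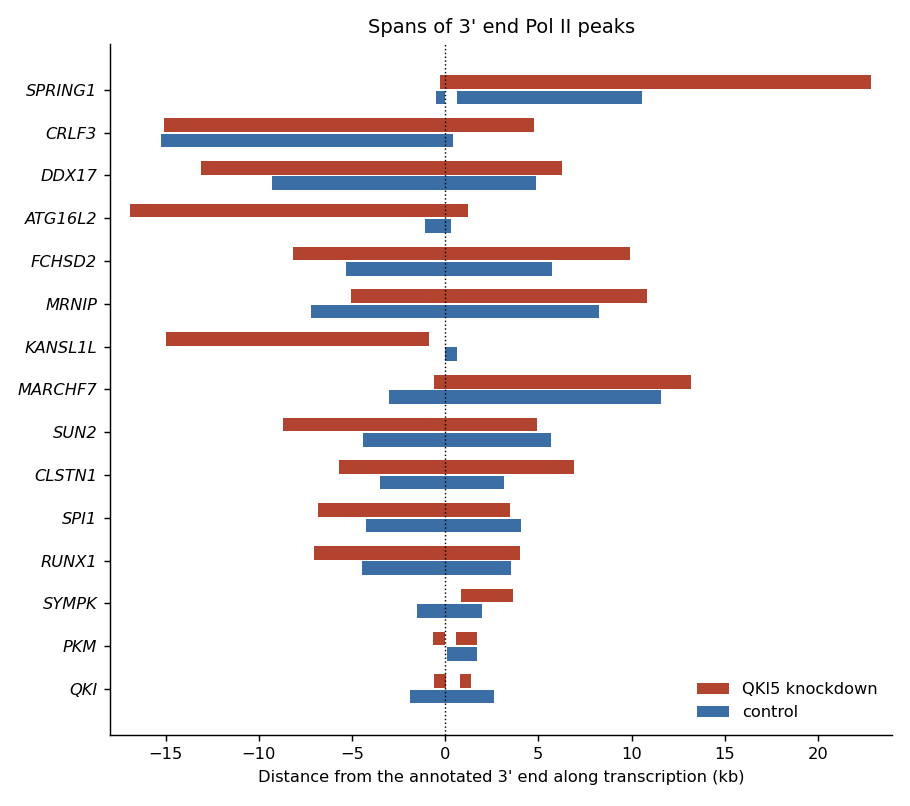
Extent of 3' end Pol II peaks along transcription (x axis, kb from the annotated 3' end, downstream to the right) at the 10 widest shared genes and at SPI1, RUNX1, SYMPK, PKM and QKI, with knockdown above control. The knockdown peak of SPRING1 reaches 22850 bp downstream, and QKI has a pair of short peaks in knockdown within the span of 1 control peak. Only 3' end peaks are drawn, so other Pol II peaks in the same stretches are not shown.

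Some widths differed several-fold between the conditions, in both directions. The largest gains in knockdown were those of ATG16L2, KANSL1L, SPRING1, MLLT10 and FBXL18. MLLT10, a partner of the histone methyltransferase DOT1L, had 8902 bp in knockdown and 1345 bp in control, where a further peak of 1657 bp and a pair of the narrowest width lay under the knockdown peak. The largest losses were those of KMT5A, JMJD1C, RBM14-RBM4, RALY and PKD1. KMT5A, which methylates histone H4, had 6406 bp in knockdown and 18936 bp in control, and knockdown peaks of 10017 bp and 775 bp also lay under the control peak. JMJD1C, a member of the Jumonji demethylase family, had 795 bp in knockdown and 11593 bp in control. The control peak at JMJD1C began 138 bp past the end and reached 11731 bp downstream, and the knockdown peak stopped at 885 bp, but further knockdown peaks of 7283 bp and 1808 bp overlapped the control peak. A wide peak in 1 list can be several narrow ones in the other, so a width difference is not a measured difference in Pol II level.

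Over the 211 genes with exactly 1 3' end peak in each condition that overlap, the widths lay on both sides of equality. Genes that share their peaks, such as CLSTN1 with PIK3CD and FZR1 with MFSD12, were counted separately. The counts and intervals are thus over genes, which are not all independent. The knockdown peak was wider at 111 genes, narrower at 90 and equal at 10. The median difference, knockdown minus control, was 69 bp (0 to 295 bp), with median widths of 3331 bp in knockdown and 2776 bp in control. The downstream edge lay farther downstream in knockdown at 113 genes and in control at 98, with a median difference of 89 bp (-33 to 243 bp). At 2005 5' ends of eligible genes measured the same way, the median width difference was 102 bp (53 to 140 bp). The interval of the width difference at the 3' ends contains that at the 5' ends, and the interval of the edge shift spans 0.

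**Figure D3:**
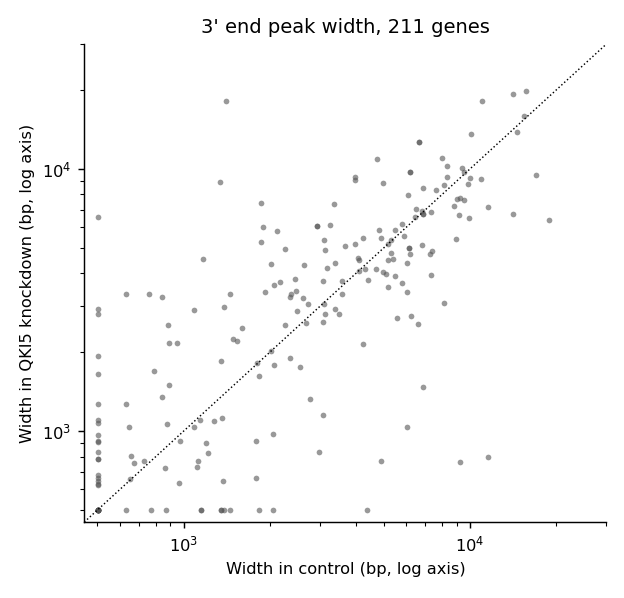
Width of the 3' end Pol II peak in QKI5 knockdown (y axis, bp, log scale) against control (x axis, bp, log scale) at 211 genes with a single overlapping peak in each condition; the dotted line marks equal widths. The points lie on both sides of the line, 111 above and 90 below.

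Of the 3' end peaks, 40.4% in knockdown and 37.9% in control overlapped no Pol II peak of the other condition. The same share over all Pol II peaks was 40.6% in knockdown and 36.7% in control, and over H3K4me3-free Pol II peaks 63.2% in knockdown and 60.6% in control. At the 5' ends of the eligible genes it was 4.39% in knockdown and 2.15% in control. The overlap differed strongly by width. Among 3' end peaks of the narrowest width, 27.9% in knockdown and 33.3% in control overlapped the other list, and among those over 4000 bp 97.5% in knockdown and 98.2% in control. In the same width classes all H3K4me3-free peaks overlapped at 19.1% and 96.9% in knockdown and at 20.9% and 97.4% in control. Between 1 and 2 kb the 3' end peaks overlapped at 60.4% in knockdown and 73.4% in control, and the 5' end peaks at 96.4% in knockdown and 98.6% in control. Narrow 3' end peaks thus overlapped the other list least often in each condition.

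**Figure D4:**
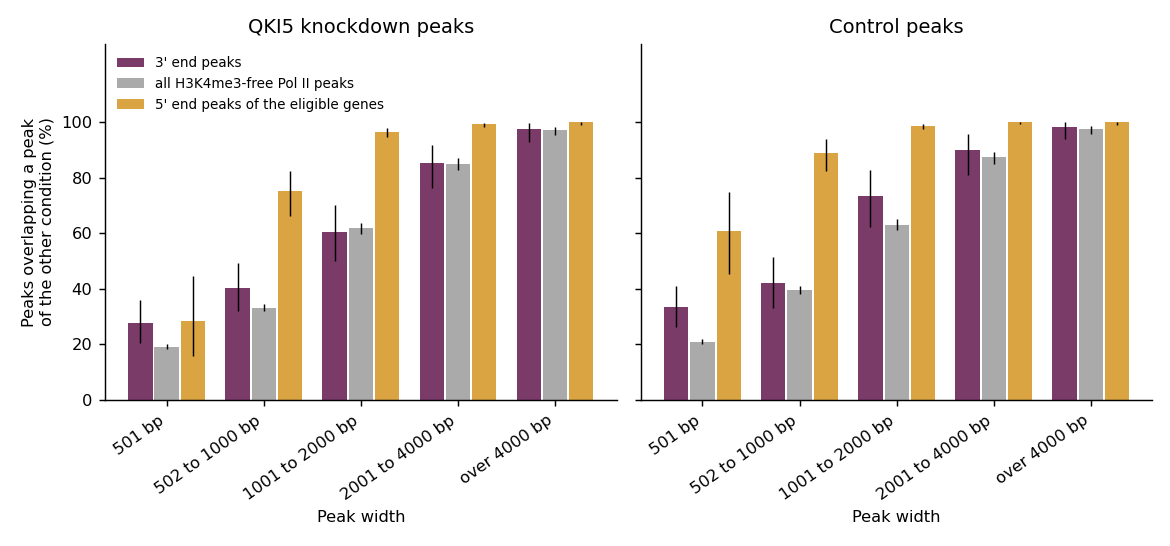
Share of Pol II peaks that overlap a Pol II peak of the other condition (y axis, %) by peak width (x axis), for 3' end peaks, all H3K4me3-free Pol II peaks and 5' end peaks of the eligible genes, with exact 95% intervals; knockdown peaks on the left, control peaks on the right. The share at 3' ends runs from 27.9% at the narrowest width to 97.5% over 4000 bp in knockdown.

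The widest peak in knockdown alone was at MPI, which makes mannose-6-phosphate isomerase, with 7800 bp. SP3, a GC-box transcription factor, had 5621 bp in knockdown, from 365 to 5986 bp downstream, and BCL2, the inhibitor of apoptosis, 3662 bp. The others were TIMM23, TUBB6, DGKQ, TNRC18, LUC7L3, DNTTIP2 and NPEPPS. Of these 10, MPI, TIMM23, DGKQ, TNRC18 and DNTTIP2 overlapped a control peak that lay over 1 kb from the end, and SP3 and BCL2 stood 271 bp and 321 bp from one. The nearest control peak lay 20505 bp from the NPEPPS peak of 3810 bp at chr17:47623093-47626902, the most isolated of the 10. NPEPPS, an aminopeptidase gene, had no Pol II peak at its annotated 5' end in either condition.

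In control alone the widest was at SMG5, a nonsense-mediated decay factor, with 7751 bp, 1853 bp from the nearest knockdown peak. USP7, a deubiquitinase gene, followed with 6606 bp in the wider of its peaks and PSMA6, a proteasome subunit gene, with 5127 bp. Others were LMAN1, DNAJC9, RPTOR, PPP1R15B, DGCR2 and PPP2R2A. Of these 10, USP7, PSMA6, LMAN1, DNAJC9, RPTOR and DGCR2 overlapped a knockdown peak farther from the end. When no peak of the other condition was allowed within 5 kb of the end, 60 of the 2569 eligible genes were left in knockdown alone and 48 in control alone.

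Genes with a 3' end peak differed from the 1640 eligible genes with no Pol II peak there. They had a Pol II peak at the 5' end in 90.9% in knockdown (88.5 to 92.9%) and 89.9% in control (87.5 to 92.0%), beside 77.7% in knockdown (75.6 to 79.7%) and 75.2% in control (73.1 to 77.3%) of the genes without. An H3K4me3 peak stood at the 5' end of 93.2% in knockdown and 93.5% in control, beside 85.6% in knockdown and 85.1% in control. The 5' Pol II peaks were wider, with medians of 2816 bp in knockdown and 2666 bp in control, beside 2094.5 bp in knockdown and 2045.5 bp in control. Pol II peaks, those at the 3' end included, covered a median of 8.46% of the gene in knockdown and 8.37% in control, beside 1.55% in knockdown and 1.31% in control. The genes with a 3' end peak were also shorter, with a median of 46875.5 bp (42520 to 50903 bp) beside 96593.5 bp (89937 to 103394 bp). Length is not independent of the measures per gene, and its part in them was not tested.

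The share of genes with a 3' end peak was lower at longer genes in both conditions. At 10 to 20 kb it was 31.8% in knockdown (26.4 to 37.6%) and 31.8% in control. At 50 to 100 kb it was 22.2% in knockdown and 21.2% in control, and above 200 kb it was 7.96% in knockdown (5.58 to 10.9%) and 6.09% in control (4.02 to 8.79%). It was larger where the Pol II peak at the 5' end was wider. With a 5' peak of 1 to 2 kb it was 16.2% in knockdown and 16.9% in control. With one over 4000 bp it was 38.1% in knockdown (33.1 to 43.2%) and 36.1% in control (30.9 to 41.6%). Genes with no 5' peak had it in 10.2% in each condition.

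**Figure D5:**
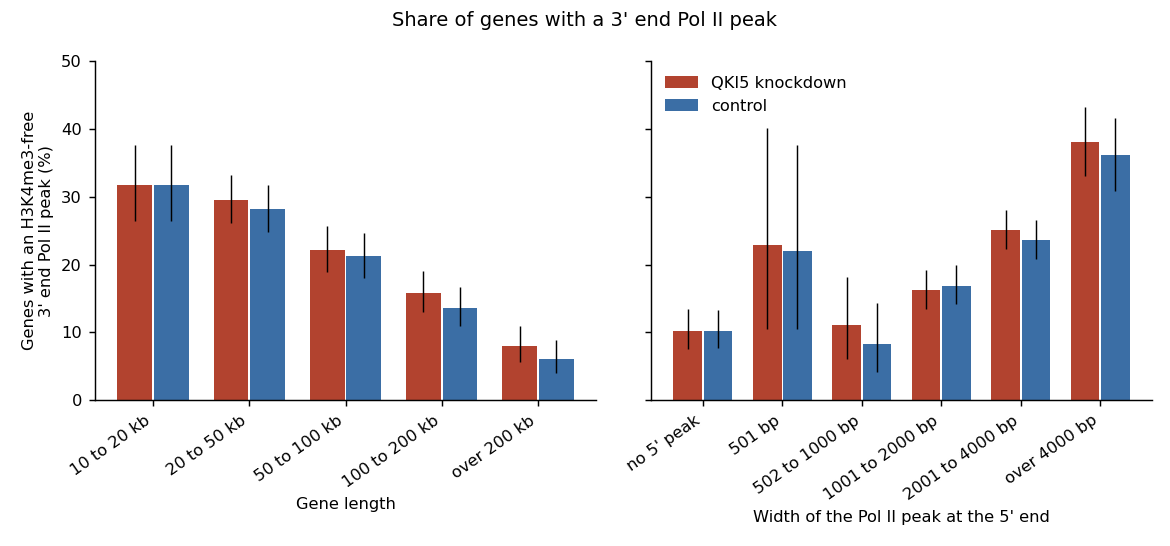
Share of eligible genes with an H3K4me3-free Pol II peak at the 3' end (y axis, %) by gene length (left) and by the width of the Pol II peak at the 5' end (right), for QKI5 knockdown and control, with exact 95% intervals. The share is 31.8% at 10 to 20 kb and 7.96% above 200 kb in knockdown.

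Another gene began, ended or lay within 5 kb of the 3' end at 63.4% of the genes with a 3' end peak (59.8 to 66.9%), beside 45.1% of those without (42.7 to 47.6%). The next gene downstream was taken as a gene covering the end or, failing that, the nearest one beyond it. Its strand came from RefSeq or, failing that, from control CLIP peaks. Where it lay within 5 kb and had a strand, it ran in the same direction at 13 of 90 genes with a peak in both conditions (14.4%; 7.92 to 23.4%), beside 73 of 220 genes without a peak (33.2%; 27 to 39.8%). At genes with a peak in knockdown alone it was 15 of 45 (33.3%) and in control alone 10 of 30 (33.3%), close to the genes without. Over all genes with a 3' end peak it was 46 of 185 (24.9%; 18.8 to 31.7%), an interval that overlaps that of the genes without. At the other 77 of the 90 the next gene lay on the opposite strand, where ChIP does not show which strand the Pol II transcribes. Of the peaks themselves, 18 in knockdown and 14 in control belonged to a pair of genes, all on opposite strands.

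Genes that act at the end of transcription themselves had 3' end peaks. Of 36 cleavage, polyadenylation and termination factors 6 were eligible, and 5 of them had a 3' end peak in either condition, beside 28.2% of all eligible genes. SYMPK, the scaffold of the cleavage complex, had 2805 bp in knockdown, from 839 to 3644 bp downstream, and 3485 bp in control, from 1497 bp upstream to 1988 bp downstream. A further knockdown Pol II peak of 931 bp overlapped the SYMPK control peak. SCAF4, an anti-terminator that limits early polyadenylation, had 8673 bp in knockdown and 8153 bp in control. RPRD2 had a peak of the narrowest width in control alone. XRN2, the termination exonuclease, had 1261 bp in control, and the knockdown peak there failed the rule. WDR33, a subunit that binds the polyadenylation signal, had no Pol II peak of this kind. With 6 genes the count says little about the list.

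Of 10 eligible Pol II subunit and elongation genes, 5 had a 3' end peak (50%, beside 28.2% of all eligible genes). POLR2B, the second-largest Pol II subunit gene, and NELFCD, of the pausing factor NELF, had it in both conditions, LEO1 and IWS1 in knockdown alone and NELFA in control alone. The IWS1 knockdown peak of 2560 bp overlapped a control Pol II peak of 816 bp that lay over 1 kb from the end. Of 14 eligible splicing and RNA-binding genes 7 had one (50%, beside the same 28.2%). HNRNPM, a splicing regulator, had 5447 bp in knockdown and 4237 bp in control, and CELF2, another splicing regulator, 5871 bp in knockdown and 4800 bp in control. SRRM1 and DDX17 also had one in both, and SRSF4 and LUC7L3 in knockdown alone.

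QKI, the gene targeted, belongs to the same list. At its 3' end knockdown cells had a pair of narrow peaks, of 634 bp at chr6:163577978-163578611 and of 637 bp at chr6:163579359-163579995. Control cells had 1 peak of 4542 bp at chr6:163576683-163581224, from 1910 bp upstream to 2632 bp downstream, and both knockdown peaks lie within it. The Pol II peak at the 5' end of QKI was 6954 bp wide in knockdown and 6642 bp in control. Further knockdown Pol II peaks of 1550 bp and 5700 bp, which were not 3' end peaks, also overlapped the control peak. The Pol II level itself was not measured by these lists.

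Of 22 eligible chromatin regulators 11 had a 3' end peak (50%, beside 28.2% of all eligible genes). EZH2, which methylates H3K27, had 6497 bp in knockdown, downstream of the end, and a peak of the narrowest width in control, upstream of it. Control also had a Pol II peak of 5676 bp that overlaps the knockdown one and begins over 1 kb from the end. EP300, a histone acetyltransferase gene, had a pair of peaks of 1755 bp and 1666 bp in knockdown and 1 peak of 2012 bp in control, which overlaps the downstream knockdown peak of 1666 bp. The knockdown peak of 1755 bp overlapped a control Pol II peak of 839 bp that was not a 3' end peak. SETD1B, CHD2 and ANKRD11 also had one in both, CREBBP, ASXL1 and KDM2B in knockdown alone, and HDAC4 and NSD2 were among those with one in control alone. NSD2 and NELFA share a control peak of 785 bp, since their 3' ends face each other.

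Of 14 eligible metabolic genes 8 had a 3' end peak (57.1%, beside 28.2% of all eligible genes). FASN, the fatty acid synthase gene, had 9230 bp in knockdown, across the end. Control had a pair of peaks of 3808 bp and 2618 bp, both overlapping the knockdown peak. A further control Pol II peak of 10834 bp, which was not a 3' end peak, also overlapped that knockdown peak. A further knockdown peak of 2394 bp overlapped the control peak of 3808 bp. IDH1, isocitrate dehydrogenase, had 7165 bp in knockdown and 11594 bp in control, and a further knockdown Pol II peak of 8747 bp overlapped the control peak. TALDO1, of the pentose phosphate pathway, had 7778 bp in knockdown and 9250 bp in control. At TALDO1 a further knockdown peak of 2052 bp overlapped the control peak, and a further control peak of 1256 bp the knockdown peak. PKM, pyruvate kinase, had 1125 bp in knockdown and 1628 bp in control over the GRAMD2A window printed above, and a further peak of 636 bp in knockdown. PFKP, phosphofructokinase, had 628 bp in knockdown and a narrowest peak in control. TXNRD1 had one in knockdown alone, of the narrowest width. At ENO1 control had 8092 bp, and in knockdown a Pol II peak of 28750 bp at the 5' end is longer than the gene. Of 9 eligible translation and chaperone genes 5 had one (55.6%, beside the same 28.2%), with 11862 bp in knockdown and a pair of peaks of 9439 bp and 3899 bp in control at PDIA6, a protein disulfide isomerase, and 8784 bp in knockdown and 9888 bp in control at PDIA4. Of 39 cytoskeleton and adhesion genes 18 were eligible and 6 had one (33.3%, near the 28.2% of all eligible genes), among them FLNA, filamin A, with 1817 bp in knockdown and 1805 bp in control, and WDR1, an actin-disassembly factor, with 7981 bp in knockdown and 6097 bp in control.

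Of 8 eligible myeloid genes 2 had a 3' end peak (25%, near the 28.2% of all eligible genes), both in both conditions. SPI1, which encodes the myeloid transcription factor PU.1, had 10283 bp in knockdown at chr11:47351395-47361677 and 8322 bp in control at chr11:47350773-47359094. The knockdown peak ran from 6818 bp upstream to 3465 bp downstream of the end and the control peak from 4235 bp upstream to 4087 bp downstream, each over the MYBPC3 window printed above. RUNX1, a haematopoietic transcription factor gene, had 11053 bp in knockdown, from 7047 bp upstream to 4006 bp downstream, and 7982 bp in control, from 4449 bp upstream to 3533 bp downstream. In both genes the knockdown peak reached farther into the gene than the control 3' end peak. A further control Pol II peak also overlapped each knockdown peak, of 1939 bp at SPI1 and 754 bp at RUNX1.

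QKI5 CLIP peaks in the RNA of 3' end regions were few. A control CLIP peak lay in the last 1 kb of 4.70% of genes with a 3' end peak (3.27 to 6.50%) and 3.41% of genes without (2.59 to 4.41%), and these intervals overlap. Control CLIP peaks lay under 3' end Pol II peaks on the strand of the gene 53 times in knockdown Pol II peaks, at 36 genes, and 46 times in control ones, at 29 genes. Knockdown CLIP gave 1 such peak for each Pol II list. Only genes with a control CLIP peak were eligible, and the CLIP lists hold 669 peaks in knockdown and 7337 in control. The counts are therefore not comparable between the CLIP lists. The CLIP peak with most reads was at SPEN, a transcriptional repressor gene, with 23 reads and a log2 enrichment of 3.20 at chr1:15939319-15939480, centred 1057 bp before the end, under Pol II in both conditions. FASN had a CLIP peak of 22 reads under the knockdown 3' end peak and SSBP4 one of 22 reads under the control 3' end peak. DDX17 had 16 reads and USP22, a histone deubiquitinase gene, 13 reads, each under Pol II in both. SPI1 had 14 reads and a log2 enrichment of 5.41 at chr11:47355619-47355735, 817.5 bp before the end, under Pol II in both. TUG1 had 17 reads, ITM2C 15, PPP6R2 14 and BRD9 12. Some of these CLIP peaks were centred far from the end, where negative positions are upstream. The centres were at -6724 bp at FASN, -5485.5 bp at DDX17, and -3774 and -3704 bp at PPP6R2. At BRD9 the centre lay 4365 bp past the end. Reads and enrichments are the authors' values for each peak.

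The 1 kb limit passed through a continuum. In knockdown STXBP2 and IPMK were just inside it, at 988 and 996 bp from the end, and ZNF292 and UBAP1 just outside, at 1003 and 1004 bp. In control BRAT1 and JPT1 were just inside, both at 998 bp, and ATF7IP2 and BCL9L just outside, both at 1002 bp.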

How the data were processed

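Pol II and H3K4me3 peaks in the lists deposited by the authors carry a score of 1 and a plus strand at every peak, so width was the value used. The CLIP lists deposited by the authors give per peak the -log10 p, the log2 enrichment and the read count, with units read from the values. The submitters' processing notes name HOMER and GRCh38.p5, and the sources used here give no other step. Each list was made from both replicates, per the series text. Depth per sample is unknown. Peaks were read as 1-based and kept on chromosomes 1 to 22, X and Y.

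Gene ends and names came from RefSeq (GRCh38.p14), whose patch releases leave the chromosome coordinates of GRCh38 in place. Of the CLIP peaks 90.1% in knockdown and 94.0% in control matched a RefSeq gene. The strand came from control CLIP peaks and equalled that of the RefSeq promoter table at all 2165 eligible genes found there. Overlap means at least 1 bp. Shares carry exact binomial intervals. No test between conditions was run. Python 3.11.15, NumPy 2.4.6 and SciPy 1.17.1 were used, and assignment was checked on simulated peaks.

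The genes, lists and regions were chosen with earlier results of these data known. Genes named are the 10 widest in both conditions and in each alone, the 5 largest width differences each way, list members, the 10 with most CLIP reads and those nearest the 1 kb limit. Results for some genes are not reported here.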

Additional observations from a re-analysis of the deposited data

How the results depend on the processing

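Of 168 values, 122 stayed within counting error or, for counts of genes, within 1.5 times under the alternatives, and 46 moved. With 2 kb from the 3' end, overlap with the other list was 54.0% in knockdown and 57.4% in control, the median width 917 bp in knockdown and 827 bp in control, and the share of peaks within 1 kb of another gene's end 31.3% in knockdown and 30.9% in control. With 500 bp, the width was 1655 bp in knockdown and 1371.5 bp in control, and that share 42.0% in knockdown and 43.4% in control. With no condition on H3K4me3, overlap was 69.3% in knockdown and 71.8% in control, the width 1959.5 bp in knockdown and 1721 bp in control, the share near another gene 50.9% in each, and 61.4% of control peaks were centred downstream. With peaks of the narrowest width left out, overlap was 69.6% in knockdown and 74.2% in control, the width 1894 bp in knockdown and 1891 bp in control, and the share near another gene 42.7% in control. Of the 1180 eligible genes with no other gene within 5 kb of the end, 199 in knockdown and 183 in control had a peak. It was in knockdown alone at 72 of the 1180 genes and in control alone at 60. There, 71.2% of knockdown and 62.5% of control peaks were centred downstream, 1.37% of knockdown and 1.92% of control peaks lay near another gene, 57.7% of control peaks overlapped the other list, and 92.9% of control genes had a 5' peak. Requiring 50% overlap of each peak gave 30.5% in knockdown and 33.0% in control, and allowing a peak within 1 kb gave 74.7% in knockdown and 76.5% in control. Asking for 5 kb without a peak of the other condition left 60 of the 2569 eligible genes in knockdown alone and 48 in control alone. With 3 kb, 1 of 3 settings chosen after seeing the data, 865 genes in knockdown and 814 in control had a peak, overlap was 51.5% in knockdown and 54.8% in control, the width 826 bp in knockdown and 771 bp in control, and the share near another gene 28.8% in knockdown and 27.4% in control.

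No paired analysis was possible because each list pools both replicates, which also prevents leaving out a replicate. Peak lists give no depth or signal, so a missing peak is not a measured absence, and which narrow peaks lie near the authors' calling limit is unknown. Genes without a control CLIP peak were not analysed here.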
